A study of Mus musculus with 28 samples.

Results

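The Elavl and Celf genes encode 2 families of RNA-binding proteins, and all 10 of their mouse genes, Elavl1 to Elavl4 and Celf1 to Celf6, were taken by gene symbol from the 23038 genes measured in each library. The libraries were polyA RNA-seq of embryonic midbrain (E18.5, in days of gestation) and of midbrain and cortex from pups at postnatal day 21 (P21), all from mice labelled BL6, which the study's methods give as C57BL/6J. In each tissue, Nova1 hu/hu mice, homozygous for a CRISPR/Cas9 knock-in that places the human-specific I197V substitution and accompanying silent changes in the splicing factor Nova1, were compared with wt/wt littermates carrying the unedited mouse gene. There were 6 libraries per genotype in E18.5 midbrain and 4 per genotype in each P21 tissue, 28 in all. The knock-in is germline, so every cell of a hu/hu animal carries it, and the labels name no other treatment. The study's methods call its replicates biological, while the labels do not say which animal each library came from, so the p-values measure the spread between these libraries.

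Elavl and Celf proteins bind uridine-rich and GU-rich stretches of RNA through RNA recognition motifs. Elavl proteins, also called Hu proteins, are best known for protecting mRNAs with AU-rich elements in their 3′UTRs from decay and for regulating neuronal splicing. Elavl1 (HuR) is present in nearly all cell types, whereas Elavl2 (HuB), Elavl3 (HuC) and Elavl4 (HuD) are neuronal proteins that appear as neurons are born and mature. Celf1 and Celf2 are broadly expressed regulators of splicing, translation and mRNA decay, and Celf3 to Celf6 are enriched in the nervous system. Nova1 acts on the same layer of gene control by binding YCAY-rich RNA, so the genotype comparison asks whether the humanized protein is accompanied by altered mRNA levels of these other regulators.

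Total counts ran from 18550922 to 45134998 per library, and the count of a single member in a single library from 584 (Elavl2) to 21239 (Celf4). Levels are given as TPM (transcripts scaled to the same total in each library), computed from the count and exon length of every gene. The tissue labels were checked against marker genes. The summed TPM of 5 cortical excitatory neuron markers was 1845 to 2047 in P21 cortex and 133 to 159 in P21 midbrain, and that of 5 midbrain neuron markers was 10.4 to 20.7 and 150 to 185, with Pitx3 under 0.1 in every cortex library. Markers of cerebellar granule cells (3 genes), from the neighbouring hindbrain, summed to 3.54 to 20.6 TPM in P21 midbrain. By genotype there, this sum ran from 3.54 to 7.83 TPM in hu/hu and from 3.82 to 20.6 TPM in wt/wt. E18.5 and P21 midbrain differed in cell makeup: summed immature neuron markers (3 genes) were 982 to 1217 TPM at E18.5 and 216 to 233 at P21, and summed oligodendrocyte markers (6 genes) were 58.2 to 81.9 and 20049 to 22554, with Opalin under 0.1 in every E18.5 library. In these bulk samples fewer cells of a type and less RNA per cell cannot be told apart. Nova1 mRNA itself, the targeted gene, was at 116 ± 10.6 TPM (SD, n = 12) in midbrain at E18.5 and, at P21, at 48.9 ± 2.69 in midbrain and 24.4 ± 0.95 in cortex (n = 8 each). The substitution changes its protein and is not visible in these gene counts.

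Celf5 and Celf3 had the most similar pattern over the 28 libraries of any pair among the members, by Pearson's r of log2 TPM. They were also the most changed between tissues. Their promoter windows, 250 bases before to 50 after the annotated start, are therefore shown from RefSeq (GRCm38.p6). Capitals mark the GC-box core GGGCGG, the CAAT-box letters CCAAT and the TATA-box letters TATAAA, on either strand. The Celf5 window is chr10:81482650-81482949 on the minus strand and the Celf3 window is chr3:94478045-94478344 on the plus strand, both 5′ to 3′.
Celf5: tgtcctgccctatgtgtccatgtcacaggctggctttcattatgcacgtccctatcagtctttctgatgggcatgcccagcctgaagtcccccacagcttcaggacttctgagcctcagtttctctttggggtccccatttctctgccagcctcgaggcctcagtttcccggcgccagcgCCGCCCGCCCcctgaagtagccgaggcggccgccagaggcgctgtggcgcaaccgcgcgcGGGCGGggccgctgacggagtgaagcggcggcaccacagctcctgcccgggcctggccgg
Celf3: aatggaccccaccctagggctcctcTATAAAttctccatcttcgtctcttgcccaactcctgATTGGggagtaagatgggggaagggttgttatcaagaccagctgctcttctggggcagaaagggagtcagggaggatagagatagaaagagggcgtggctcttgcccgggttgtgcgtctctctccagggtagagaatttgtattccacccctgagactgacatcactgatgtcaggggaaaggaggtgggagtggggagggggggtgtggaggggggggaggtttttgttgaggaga

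The windows of Celf5 and Celf3 were unlike in composition although the mRNAs moved together. The Celf5 window held 66.3% GC, 23 CpG and 3 matches to GGGCGG, the core of the Sp-factor GC box, a motif found in 35.9% of the 27025 promoter windows. The Celf3 window held 55.0% GC, 4 CpG and no GGGCGG, with 1 CCAAT (38.0% of all windows hold it) and 1 TATAAA (14.2%). Of the 9 members with a window, Celf6 had the highest GC content, 76.7% with 7 GGGCGG matches, and Celf2 the lowest, 46.7% with none, against a median of 52.7% over all windows. For each gene only 1 window was searched, the one whose start lies farthest 5′. RefSeq lists 7 windows for Celf3, 6 for Elavl2, 5 for Celf5, 5 for Celf2, 4 for Elavl4 and 2 for Celf6. The GC ranking and motif counts hold for the searched windows only. The E-box CAGCTG (16.1% of all windows), not capitalized above, occurred once in the windows of Celf3, Elavl2 and Elavl3, and the RE1 core TTCAGCACC (0.37%) in none of the 9. All motifs were searched on both strands, overlapping copies included. Celf4 was matched to no window. A match describes letters and does not show that a factor binds there.

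The 3′UTRs of the members were searched for short motifs of the kinds that Elavl, Nova and Celf proteins bind. A match describes letters and does not show that a protein binds there. In the longest 3′UTR of each member in the GENCODE vM21 annotation of GRCm38, Elavl2 held 15 AUUUA pentamers, the core of the AU-rich element, or 6.06 per kb, higher than in 95.6% of 19896 genes with a 3′UTR of at least 100 bases, and Elavl1 held 17, or 4.03 per kb (87.5%). Celf5 held 1 AUUUA (0.323 per kb) and Celf6 none, against a median of 1.35 per kb over all genes. UCAU, a form of the Nova motif, occurred in every member, at 2.58 (Celf5) to 6.13 (Elavl4) per kb against a median of 4.29. These 2 extremes stood at percentiles 25.6 and 75.3 of all genes. UGUUUG, a GU-rich hexamer of the kind Celf proteins bind, occurred at 2.3 per kb in Elavl4 (percentile 92.9, median over all genes 0.0). It was not found in Elavl3, Celf3 and Celf6. Windows of 30 bases around the densest AUUUA stretch of Elavl1 (chr8:4285778-4285807, minus strand) and Elavl2 (chr4:91252690-91252719, minus strand) and around the densest UCAU stretch of Celf1 (chr2:91014605-91014634, plus strand), with each copy in capitals and T for U, read 5′ to 3′.
Elavl1: attATTTATTTATTTATTTAtttttATTTA
Elavl2: ttttATTTAtgaagttacaaacagtATTTA
Celf1: agtattaacccatgtTCATtttgTCATCAT

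Several members share a chromosome in the GRCm38.p6 annotation of RefSeq. Elavl2 (chr4:91211533-91400108) and Elavl4 (chr4:110203737-110351939) are on chromosome 4, and Celf2 (chr2:6539694-7396341) and Celf1 (chr2:90940259-91019497) are on chromosome 2. Elavl3 (chr9:22015005-22052146) and Celf6 (chr9:59578287-59609033) are the pair on chromosome 9. Elavl1 (chr8:4284781-4325140), Celf3 (chr3:94478285-94496786), Celf4 (chr18:25477620-25754520) and Celf5 (chr10:81459227-81482730) stand alone. Celf3 overlaps Riiad1, whose mean TPM was 22.5 in midbrain at E18.5, 10.3 in midbrain at P21 and 11.9 in cortex, and Celf2 overlaps the lncRNA 5031426D15Rik, at 0.933, 0.421 and 10.6 in the same order. Whether counting used the strand is not given in the sources used here, so reads over these overlaps could not be assigned with certainty.

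Within the Elavl family, Elavl3 mRNA was the most abundant in every tissue. Elavl3 ran from 205 to 258 TPM with a median of 234 in the 12 libraries of E18.5 midbrain. At P21 it ran from 129 to 138 with a median of 132 in the 8 midbrain libraries and from 126 to 144 with a median of 135 in the 8 cortex libraries. Elavl4, a regulator of neurite growth and neuronal mRNA stability, ran from 118 to 156 TPM (median 143), from 64.5 to 72.1 (median 68.8) and from 62.3 to 69.1 (median 66.3) in the same order. For both genes the E18.5 libraries lay above all P21 libraries, and the P21 tissues overlapped.

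Elavl2 was the Elavl member that separated all 3 tissues. Its TPM ran from 60.2 to 93.35 (median 74.1) in midbrain at E18.5 and from 27.4 to 35.1 (median 32) at P21, and from 13.98 to 18.8 (median 15.7) in cortex, with no overlap between any 2 of them. The ubiquitous Elavl1 ran from 47.9 to 60.3 (median 55.8), from 35.6 to 40.5 (median 36.7) and from 36.2 to 39.8 TPM (median 38.5). Its E18.5 libraries lay above both P21 tissues, which overlapped.

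Celf4, a brain-enriched regulator that binds the 3′UTRs of synaptic mRNAs, was the most abundant of all 10 members in every tissue. Celf4 ran from 279 to 307 TPM (median 290.5) in midbrain at E18.5 and from 183 to 197.2 (median 190) at P21, and from 295 to 339 (median 311) in cortex. Celf5, a brain-enriched member, ran from 107 to 151 (median 131), from 23.4 to 29.7 (median 27.6) and from 128 to 142 TPM (median 134). Celf3, the neuronal member closest to Celf5 in its profile, ran from 105 to 143 (median 131), from 36.01 to 44.8 (median 42.5) and from 117 to 139 TPM (median 127). All 3 genes were at their lowest in P21 midbrain, where no library reached the lowest of the other tissues.

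The broadly expressed members followed the same shape, and Celf6 did not. Celf1, which promotes decay of GU-rich mRNAs, ran from 86.5 to 97.1 TPM (median 92.9) in midbrain at E18.5 and from 45 to 50.1 (median 47.7) at P21, and from 94.2 to 98.5 (median 95.7) in cortex. Celf2 ran from 70.2 to 78.9 (median 74.5), from 25.97 to 30.9 (median 27.6) and from 67.3 to 79.0 TPM (median 75.8). Celf6, a brain-enriched splicing regulator, ran from 61.1 to 74.2 (median 68.03), from 39.1 to 48.4 (median 43.6) and from 24.7 to 30.5 TPM (median 28.7), so it was lowest in P21 cortex with no overlap between tissues.

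**Figure D1:**
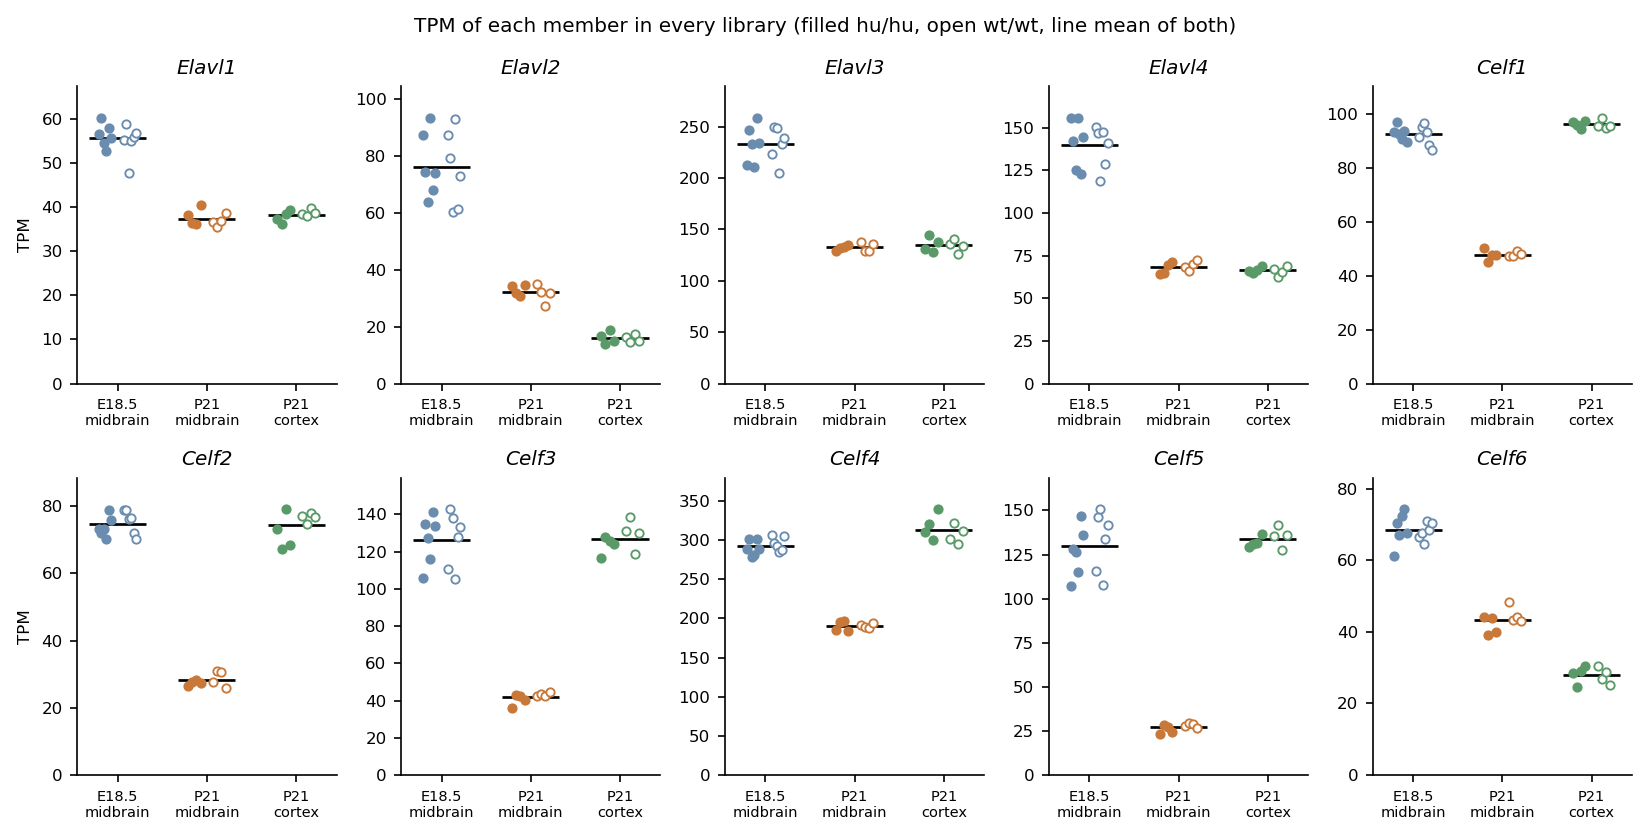
TPM (vertical axis, linear, from 0, a scale of its own in each panel) of each Elavl and Celf gene in every library of the 3 tissues, with filled points for hu/hu, open points for wt/wt and a line at the mean of both. Celf1 to Celf5 dip in P21 midbrain, Elavl2 and Celf6 step down across the 3 tissues, and filled and open points intermix.

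The order of the members by mean TPM, a scale corrected for transcript length, changed between tissues below the top 2 genes, Celf4 and Elavl3. In E18.5 midbrain they were followed by Elavl4, Celf5, Celf3, Celf1, Elavl2, Celf2, Celf6 and Elavl1, and the ranges over libraries overlapped for the neighbours Elavl4 and Celf5, Celf5 and Celf3, Celf1 and Elavl2, Elavl2 and Celf2, and Celf2 and Celf6. In P21 midbrain they were followed by Elavl4, Celf1, Celf6, Celf3, Elavl1, Elavl2, Celf2 and Celf5, with overlap for Celf1 and Celf6, Celf6 and Celf3, Celf3 and Elavl1, Elavl2 and Celf2, and Celf2 and Celf5. In P21 cortex they were followed by Celf5, Celf3, Celf1, Celf2, Elavl4, Elavl1, Celf6 and Elavl2, with overlap for Elavl3 and Celf5, Celf5 and Celf3, and Celf2 and Elavl4. Celf5 thus ranked last of the 10 in P21 midbrain and directly below Elavl3 in P21 cortex. Among genes with a mean of at least 1 TPM, Celf5 stood at percentile 90.1 of 15454 genes in midbrain at E18.5, 56.3 of 15161 in midbrain at P21 and 89.9 of 15019 in cortex.

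Summed over its 4 genes, the Elavl family was at 505 ± 18.8 TPM (SD, n = 12) in midbrain at E18.5 and, at P21, at 271 ± 7.44 in midbrain and 255 ± 4.58 in cortex (n = 8 each). Rescaled by TMM factors, a between-library scaling, the Elavl sums of the P21 tissues were 283 and 281 TPM, so their order was not clear. The 6 Celf genes summed to 784 ± 35.5, 379 ± 9.01 and 771 ± 20 TPM. The makeup of the families shifted as well. Elavl3 was 46.2 ± 3.78% of the Elavl sum in midbrain at E18.5, 49 ± 0.653% there at P21 and 52.7 ± 1.80% in cortex, while Elavl2 was 15.1 ± 2.08%, 11.9 ± 0.795% and 6.27 ± 0.721%. Celf4 was 37.4 ± 1.40% of the Celf sum in E18.5 midbrain and 40.5 ± 1.21% in P21 cortex but 50.3 ± 0.908% in P21 midbrain. Celf5 was 16.5 ± 1.31% and 17.3 ± 0.235% of it in the first 2 and 7.14 ± 0.447% in P21 midbrain. These shares are descriptions, and no test was run on them.

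**Figure D2:**
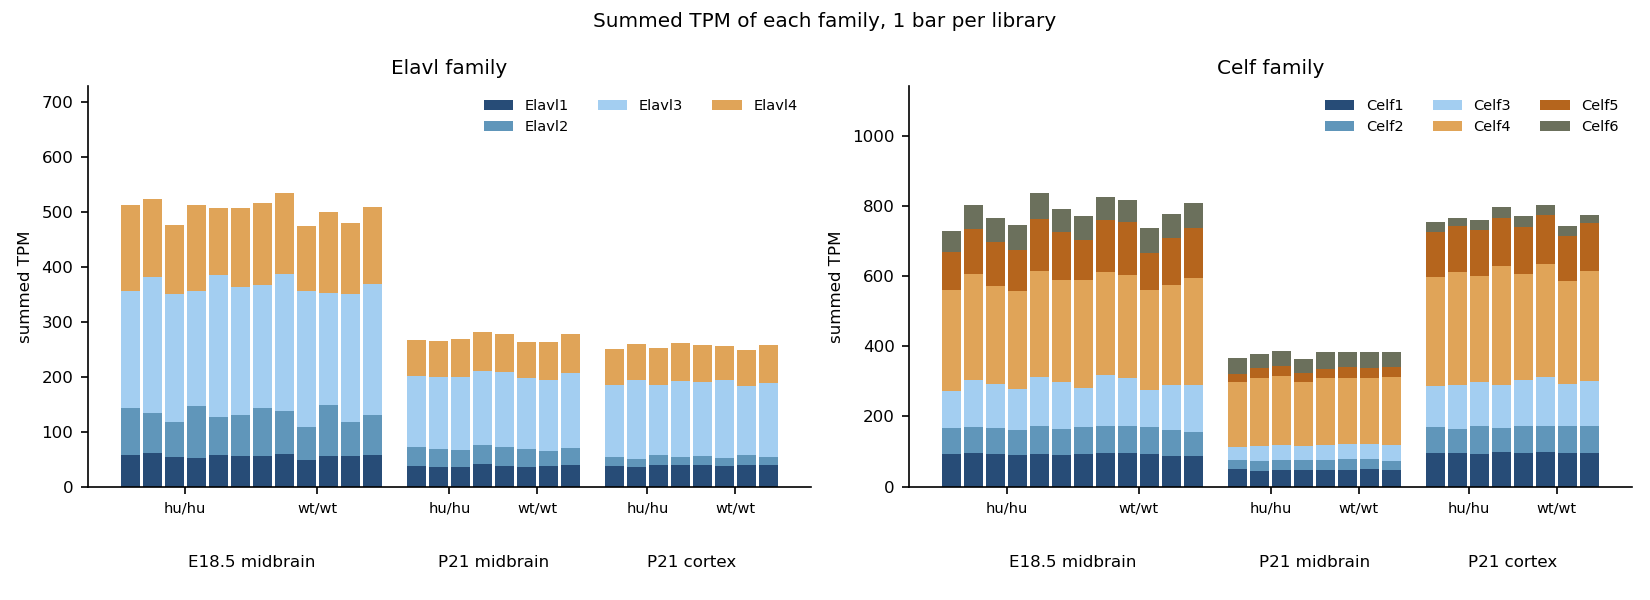
Summed TPM (vertical axis, linear, from 0) of the Elavl genes (left) and the Celf genes (right), 1 stacked bar per library, grouped by tissue and genotype, with the colours giving each gene's part. The Elavl bars are tallest in E18.5 midbrain and similar in both P21 tissues, whereas the Celf bars of E18.5 midbrain and P21 cortex, with means of 784 and 771 TPM, tower over those of P21 midbrain at 379.

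The age comparison asked how the regulators differed between E18.5 and P21 in the same brain region, over 20 midbrain libraries. All 10 members were lower at P21, with an edgeR call (p under 0.05 and Benjamini-Hochberg adjusted p under 0.1) for 10 of 10 against 43.1% of the 16330 genes tested that were called lower. None was called higher, against 42.3% of all genes. The edgeR log2 fold change had a median of -0.79 over the members and -0.02 over all genes tested. The TPM ranges of the 2 ages did not overlap for any of the 10, which held for 60.1% of all genes.

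In the Elavl family, Elavl2 fell by 1.04 on the edgeR log2 scale (SE 0.089, 95% CI -1.22 to -0.86, adjusted p = 6.9e-11), a 2.06-fold difference. Elavl4 fell by 0.83 (SE 0.058, adjusted p = 1.1e-12) and Elavl3 by 0.61 (SE 0.037, adjusted p = 7.4e-14). The ubiquitous Elavl1 fell least, by 0.37 (SE 0.038, 95% CI -0.45 to -0.29, adjusted p = 1.8e-09), or 1.29-fold.

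In the Celf family, Celf5 fell most of all 10 members, by 2.06 on the edgeR log2 scale (SE 0.063, 95% CI -2.19 to -1.93, adjusted p = 6.6e-20), or 4.16-fold, at percentile 3.66 of all genes tested. Celf3 fell by 1.39 (SE 0.055, adjusted p = 1e-17) and Celf2 by 1.21 (SE 0.04, adjusted p = 2.9e-19). With Elavl2 these were the 4 members called at least 2-fold lower, against 14.7% of all genes, and 0 were called at least 2-fold higher, against 15.9%. Celf1 fell by 0.75 (SE 0.029, adjusted p = 1e-17), Celf6 by 0.46 (SE 0.042, adjusted p = 1.9e-10) and Celf4 by 0.42 (SE 0.032, adjusted p = 6.4e-12).

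On the TPM scale the same differences were larger, 1.49-fold for Elavl1 to 4.79-fold for Celf5, because the median gene tested stood 0.20 lower on the log2 TPM scale at P21 (median log2 ratio -0.20 for age and -0.07 for cortex over midbrain). Cell-type markers moved with age too. All 3 immature neuron and all 5 progenitor markers were called lower at P21, all 6 oligodendrocyte markers were called higher, and the 4 measured neuron markers were called higher for 3 and lower for 1 (Tubb3), their summed level rising from 2684 to 2990 TPM at E18.5 to 3373 to 3742 TPM at P21. Their part in the members' differences was not tested. The ages were also separate collections, so age and preparation cannot be told apart.

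The region comparison asked which regulators differed between cortex and midbrain at P21, over 16 libraries, and shares the 8 P21 midbrain libraries with the age comparison. Of the members, 7 were called higher in cortex, against 37.6% of the 16345 genes tested, and 2 were called lower, against 37.9%. The edgeR log2 fold change (cortex over midbrain) had a median of 1.28 over the 6 Celf genes and 0.07 over the 4 Elavl genes, beside 0.00 over all genes. TPM ranges did not overlap for Elavl2 and all 6 Celf genes, 7 of 10, against 47.3% of all genes.

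Celf5 differed most, 5.21-fold higher in cortex (edgeR log2 fold change 2.38, SE 0.04, 95% CI 2.30 to 2.46, adjusted p = 2.5e-23), at percentile 98.3 of all genes tested. Celf3 was 3.19-fold higher (log2 fold change 1.67, SE 0.038, adjusted p = 8e-21), Celf2 2.78-fold (1.48, SE 0.042, adjusted p = 4.4e-19) and Celf1 2.12-fold (1.08, SE 0.025, adjusted p = 9.4e-21). These 4 were the members called at least 2-fold higher, against 7.59% of all genes. Celf4 was 1.73-fold higher (0.79, SE 0.026, adjusted p = 7.5e-18).

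Celf6 and Elavl2 were the members called lower in cortex. Celf6 was 1.46-fold lower (edgeR log2 fold change -0.55, SE 0.049, 95% CI -0.65 to -0.44, adjusted p = 8e-10) and Elavl2 was 1.92-fold lower (-0.94, SE 0.061, 95% CI -1.06 to -0.81, adjusted p = 2.3e-12). Neither reached 2-fold in this fit, so 0 members did in that direction, against 7.82% of all genes called at least 2-fold lower. The direction of Celf6 was therefore opposite to that of the other 5 Celf genes.

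The remaining Elavl genes differed little between the P21 tissues. Elavl1 (edgeR log2 fold change 0.11, SE 0.029, adjusted p = 0.0016) and Elavl3 (0.10, SE 0.027, adjusted p = 0.0028) were called higher in cortex by about 1.08-fold and 1.07-fold, with overlapping TPM ranges. The log2 ratios of their mean TPM were smaller, 0.03 for Elavl1 and 0.02 for Elavl3, so the size of both differences depended on the scale. Elavl4 was not called (0.03, SE 0.03, 95% CI -0.03 to 0.10, adjusted p = 0.31), and the log2 ratio of its mean TPM was -0.04, so its sign depended on the scale. The 95% interval of Elavl4 reached 0.10 in favour of cortex, and it holds for the edgeR scale only.

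Markers also differed between the regions. All 6 oligodendrocyte markers were called lower in cortex (summed level 5820 to 6565 TPM, against 20049 to 22554 in midbrain), all 5 cortical excitatory neuron markers were called higher, and of the 4 neuron markers 3 were called higher and 1 lower (summed level 3932 to 4265 TPM, against 3373 to 3742). Their part in the members' differences was not tested.

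**Figure D3:**
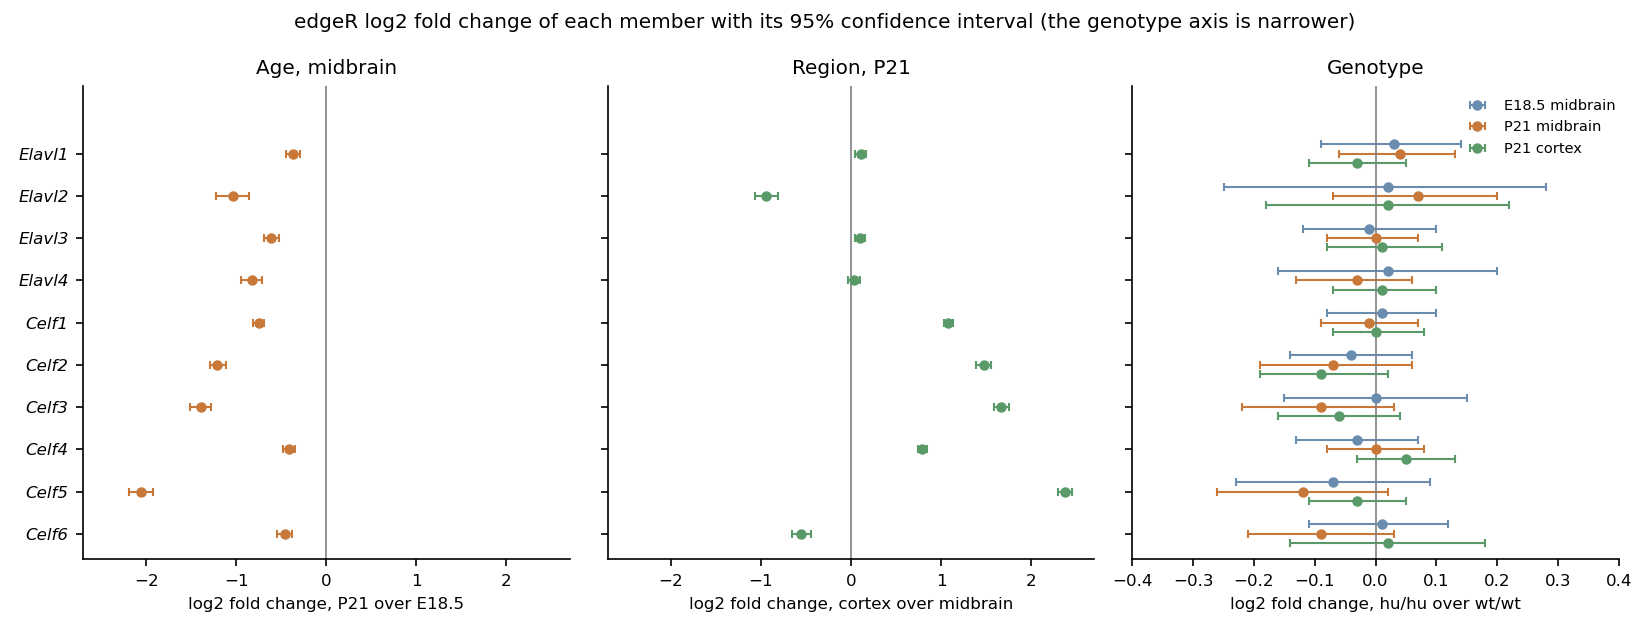
edgeR log2 fold change of each Elavl and Celf gene with its 95% confidence interval, for age (P21 over E18.5 midbrain) and region (P21 cortex over midbrain) and, on a narrower axis, for genotype (hu/hu over wt/wt) in the 3 tissues. Celf5 lies at -2.06 for age and at 2.38 for region, whereas every genotype interval spans 0.

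Celf1 to Celf5 reached similar TPM in E18.5 midbrain and P21 cortex, tissues that differ in both age and region. The TPM ranges of the 5 genes overlapped between them, with means of 92.4 ± 3.17 and 96.1 ± 1.40 for Celf1 and of 130 ± 15.5 and 134 ± 4.59 for Celf5 (SD, n = 12 and 8). This overlap rests on the TPM scale. With TPM rescaled by TMM factors, which multiplied E18.5 midbrain levels by 0.90 and P21 cortex levels by 1.1, none of the 5 ranges overlapped and P21 cortex was the higher. No test was run between these tissues.

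The genotype comparison asked whether the regulators differed between hu/hu and wt/wt mice. No member was called in midbrain at E18.5 (0% of 15540 genes tested were called) or P21 (0% of 15972) or in cortex (0% of 15767). The study, at the same edgeR thresholds, reported Gkn3 as lower in hu/hu P21 midbrain, and the fit here did not call it. By edgeR, 201, 426 and 450 genes had an unadjusted p under 0.05 and none of these was a member, and DESeq2 called 0, 1 and 0 genes, again no member. The TPM ranges of the genotypes overlapped for all 10 members in each tissue, beside 0.0515%, 1.92% and 2.02% of all genes whose ranges were apart. The edgeR log2 fold changes (hu/hu over wt/wt) ran from -0.07 (Celf5) to 0.03 (Elavl1) in midbrain at E18.5 and from -0.12 (Celf5) to 0.07 (Elavl2) at P21, and from -0.09 (Celf2) to 0.05 (Celf4) in cortex. Their 95% intervals stayed within -0.25 to 0.28, -0.26 to 0.20 and -0.19 to 0.22. These intervals come from the fit without a block on replicate number, so they include the spread between replicate numbers. Over all genes the median SE was 0.0867, 0.0763 and 0.0767 in this fit and 0.0605, 0.0681 and 0.0659 with the block. Nova1 mRNA had log2 fold changes of -0.01, 0.05 and 0.02.

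The lowest genotype p-values of members belonged to Celf5 in P21 midbrain and Celf2 in P21 cortex. Celf5 was at 23.4, 28.3, 27.3 and 24.4 TPM in the 4 hu/hu and 27.9, 29.7, 28.6 and 26.7 TPM in the 4 wt/wt P21 midbrain libraries. The hu/hu values of replicates 1 and 4 lay below all wt/wt values and those of the other libraries within their range, and the log2 fold change was -0.12 (SE 0.065, edgeR adjusted p = 1). Within same-numbered pairs hu/hu was the lower in 4 of 4. Blocking on replicate number gave Celf5 an unadjusted p of 0.014 (adjusted p = 1). Celf6 and Elavl4 were also lower in hu/hu in all 4 P21 midbrain pairs, with unadjusted p of 0.069 and 0.38 under the block (adjusted p = 1 for both), so this held for 3 of the 10 members, beside 6.74% of the genes tested. In the same libraries, summed cortical excitatory neuron markers were 132.8 to 140.7 TPM in hu/hu and 142.7 to 159.1 TPM in wt/wt. The ranges of the other marker sums overlapped between the genotypes. The part of tissue content in these differences was not tested. No member was higher or lower in hu/hu in every pair of E18.5 midbrain (6 pairs) or P21 cortex (4 pairs). Of all genes tested, 1.47% were lower and 1.76% higher in every E18.5 midbrain pair. In P21 cortex these shares were 7.48% and 6.12%. In P21 cortex, Celf2 was at 73.1, 67.3, 79.0 and 68.6 TPM in hu/hu and 77.1, 74.7, 77.9 and 76.9 TPM in wt/wt libraries. Of the hu/hu libraries, 3 lay below all wt/wt libraries and replicate 3 above them, with a log2 fold change of -0.09 (SE 0.051, edgeR adjusted p = 1) and, with the block, an unadjusted p of 0.019 (adjusted p = 0.83).

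Whether the genotype difference itself varied with age or region was tested as an interaction. No gene was called for genotype by age (0% of 16330) or genotype by region (0% of 16345). By edgeR, 303 and 373 genes had an unadjusted p under 0.05, none of them a member, and DESeq2 called 0 and 0. The members' interaction values ran from -0.10 (Celf6, SE 0.082) to 0.05 (Elavl2, SE 0.17) by age and from -0.07 (Elavl1, SE 0.057) to 0.11 (Celf6, SE 0.098) by region on the log2 scale.

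In E18.5 midbrain, Elavl2 and Elavl4 differed more between replicate numbers than between the genotypes of 1 number, whose shared meaning the labels do not give. Averaged over the hu/hu and wt/wt library of each number, Elavl2 was at 87.2, 76.7, 62.0, 93.1, 64.7 and 73.4 TPM for replicates 1 to 6, and the largest difference within a pair was 6.6 TPM. Elavl4 was high and low in the same pairs, at 153, 144, 122, 151, 126 and 143 TPM, with a largest difference within a pair of 8.5 TPM. Elavl3 ran the other way for replicates 1 and 4, at 218, 248, 241, 208, 246 and 236 TPM, as did Celf3, at 108, 139, 133, 111, 135 and 134 TPM. Celf5 was at 111, 137, 139, 111, 140 and 139 TPM, with a difference within 1 pair of up to 24.3 TPM, and Celf2 stayed between 73 and 75.9 TPM.

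Over the 12 E18.5 libraries, Pearson's r of log2 TPM was 0.91 for Elavl2 with Elavl4, 0.94 for Elavl3 with Celf3, 0.96 for Celf3 with Celf5 and -0.75 for Elavl2 with Celf5. These are descriptions over libraries that share pairs. Summed immature neuron markers were at 1215, 1106, 1055, 1184, 987 and 1081 TPM over the same numbers and astrocyte markers at 459, 477, 577, 457, 595 and 519 TPM. Immature neuron markers were thus highest and astrocyte markers lowest for replicates 1 and 4, in which Elavl2 was highest. Their part in the spread was not tested.

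**Figure D4:**
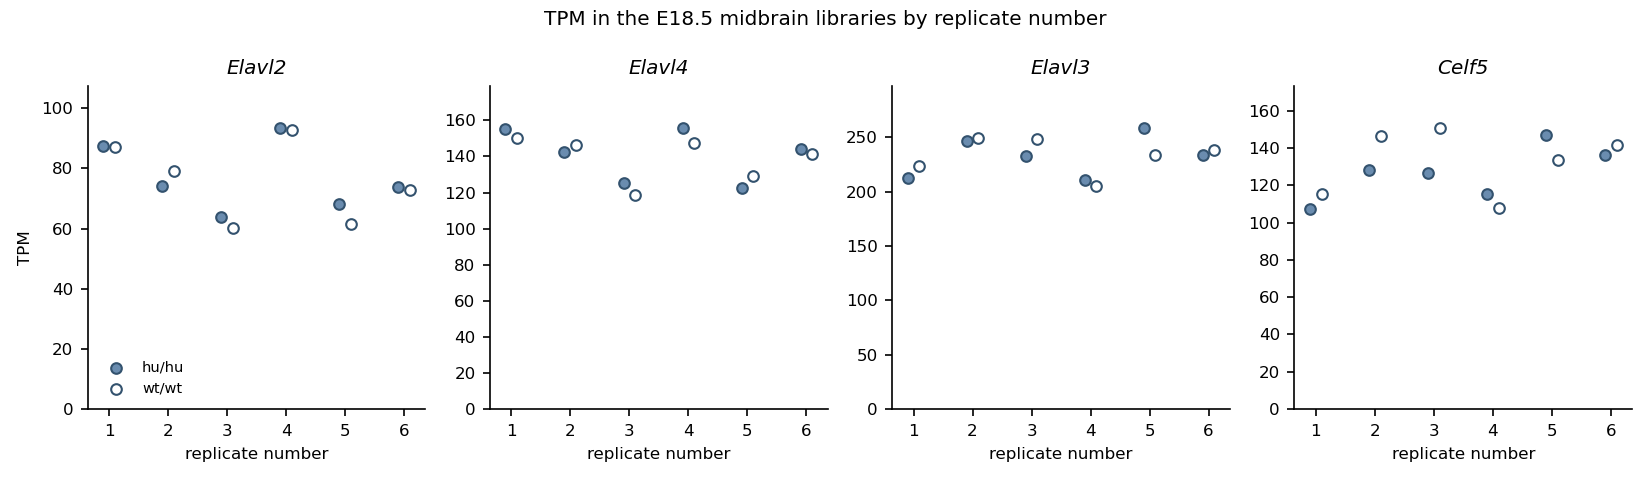
TPM (vertical axis, linear, from 0) of Elavl2, Elavl4, Elavl3 and Celf5 in the 12 E18.5 midbrain libraries against their replicate number, filled for hu/hu and open for wt/wt. For Elavl2 and Elavl4 the points of 1 number lie close together and are highest at replicates 1 and 4, where the Elavl3 and Celf5 pairs have their lowest means, while within a pair Elavl3 and Celf5 differ by up to 24.9 and 24.3 TPM.

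Genes that act with the 2 families were described by lists. Of 21 other neuronal RNA-binding regulators tested, 12 were called lower and 6 higher at P21 in midbrain, with a median log2 fold change of -0.69, where 43.1% of all genes tested were called lower and 42.3% higher. Ptbp2, a neuronal splicing repressor of immature neurons, went from 178 ± 18.1 to 57.2 ± 3.37 TPM (log2 fold change -1.44, adjusted p = 7.3e-17), and Khdrbs2 (-1.23) and Mbnl3 (-2.54, at under 1 TPM) were also lower. The Muscleblind factors Mbnl2 (2.35) and Mbnl1 (1.42), which antagonize Celf proteins on shared splicing targets, and Qk (1.43), a regulator active in oligodendrocytes and astrocytes, were higher. Between regions 9 were called higher in cortex and 9 lower, near the shares over all genes (37.6% and 37.9%). Rbfox3 (1.53), the NeuN antigen, Khdrbs3 (1.46) and Nova2 (1.06) were higher in cortex, and Qk (-0.95), Nova1 (-0.93) and Msi2 (-0.61) were lower.

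Of 12 mRNA decay and AU-rich element factors, 9 were called lower and 1 higher at P21, beside 43.1% and 42.3% of all genes, with a median of -0.60. Tia1 (-1.42), Hnrnpd (AUF1, -0.88) and Zfp36l1 (-0.86) fell, and Zfp36, the destabilizing factor tristetraprolin, rose (1.21) from a mean of 3.64 to 7.33 TPM. In cortex against midbrain 4 were higher and 5 lower, near the 37.6% and 37.9% of all genes, all within -0.35 (Zfp36l2) and 0.44 (Tia1, Cnot7), with Pan3 at 0.28, Cnot1 at -0.27 and Zfp36 at -0.25. All 6 ELAVL1 shuttling partners were called lower at P21 (43.1% of all genes were), led by the export receptor Xpo1 (-1.47), the import receptor Tnpo1 (-1.25) and Set (-0.87). Between regions 3 were higher (Anp32a 0.43, Set 0.30, Tnpo2 0.21) and 2 lower (Tnpo1 -0.51, Xpo1 -0.19) in cortex, beside 37.6% and 37.9% of all genes.

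Of 15 transcripts known as Elavl targets, 7 were called higher and 7 lower at P21, near the shares over all genes (42.3% and 43.1%), with a median of -0.11. Mycn (-2.81), the growth cone gene Gap43 (-1.90, from 1796 ± 143 to 418 ± 23.3 TPM) and Mapt (-1.68) fell, and Fos (3.39) and Camk2a (2.54) rose. In cortex 11 were higher and 1, Ache (-1.55), lower, beside 37.6% and 37.9% of all genes, with Camk2a at 1329 ± 52.4 against 149 ± 10.9 TPM (log2 fold change 3.23), Homer1 at 2.19 and Mycn at 1.07. All 3 listed Celf targets were called higher at P21 (42.3% of all genes were), Scn8a (1.80), Grin1 (1.57) and Jun (0.52), and in cortex Grin1 (0.35) and Scn8a (0.27) were higher and Jun (-0.11) lower (37.6% and 37.9% of all genes). In the genotype comparisons no gene of any list was called by edgeR, and 1 regulator and 1 decay factor had an unadjusted p under 0.05, both in P21 cortex.

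**Figure D5:**
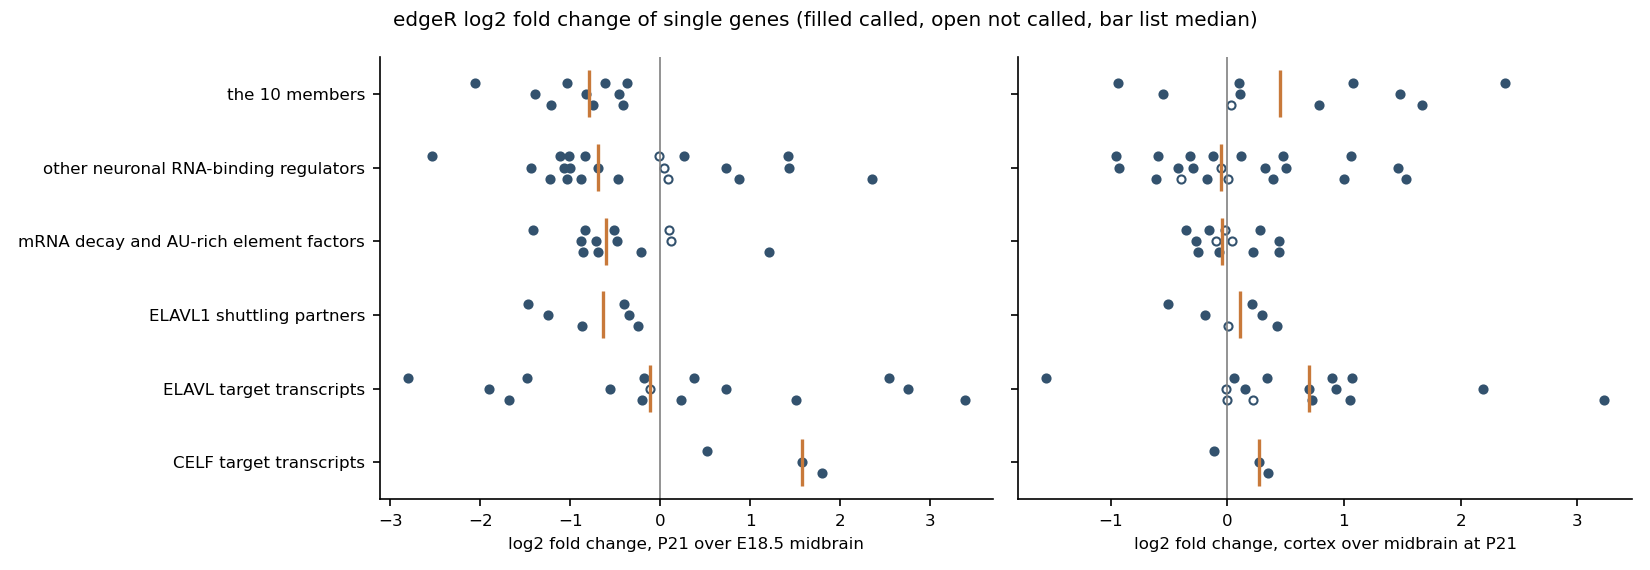
edgeR log2 fold change (horizontal axes) of the 10 Elavl and Celf genes and of the genes of each list, for age in midbrain (left) and region at P21 (right), filled where called, open where not, with a bar at the list median. The 10 members all lie below 0 for age, with a median of -0.79, and spread from -0.94 to 2.38 for region.

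The genes whose pattern over the 28 libraries was most like each member were ranked by Pearson's r of log2(TPM + 0.5) among 15540 genes with a mean of at least 1 TPM. The libraries fall into 3 tissues, so these values mostly describe the tissue pattern. Celf3 and Celf5 were each other's nearest gene (r = 0.997), followed for both by Pak6 and Arhgap33, at 0.992 for Celf3 and 0.994 and 0.993 for Celf5. Celf1 was nearest to Syt16 and Bcl11a (both 0.995) and Enc1 (0.993), Celf2 to Enc1 (0.994), Pgm2l1 (0.991) and Nav3 (0.990), and Celf4 to Cdk5r1 (0.987), Hs3st4 (0.985) and Rprm (0.984). Celf6 was nearest to C530008M17Rik (0.989), Rnf152 and AW551984 (both 0.988).

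Among Elavl genes, Elavl2 was nearest to Fstl5 (0.994), Acat2 (0.993) and Cct3 (0.992). Elavl3 was nearest to Trrap, Sugp2 and Arid1a (all 0.994), and Elavl4 to Hdac2 (0.994), Nono and Cd24a (both 0.993). Elavl1 was nearest to the RNA-binding protein genes Sfpq and Tardbp (both 0.982) and to G2e3 (0.979). Between the families, r over the 28 libraries was 0.98 for Elavl2 with Celf6. Within them it was 0.97 for Elavl1 with Elavl4, while Celf6 reached only 0.07 to 0.13 with Celf1, Celf2, Celf3 and Celf5 and -0.01 with Celf4.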

How the data were processed

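Midbrain and cortex polyA RNA (Trizol and RNeasy, TruSeq libraries) was sequenced by the authors, who used OLego for alignment to mm10 and Quantas for gene counting. The tables give, per library, an estimated count, an exon length and an RPKM for 23038 genes. The estimated counts deposited by the authors were not whole for 751 to 2715 genes per library and were rounded before testing. The RPKM values deposited by the authors were recomputed from count and exon length as a check and entered no test. TPM was computed here from the same 2 columns over all genes. Whether counting used strand is not given in the sources used here, and 0 per-sample columns were left unused.

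edgeR 4.0.16 (R 4.3.3) quasi-likelihood tests with TMM factors and filterByExpr were fitted on all genes that passed the filter, all 10 members among them. Genotype was fitted within each tissue. Age (20 libraries), region (16 libraries) and both interactions were fitted as contrasts of 4 group means. A call needed both a p under 0.05 and, after Benjamini-Hochberg adjustment, a p under 0.1, following the study. Recovery was checked on simulated counts, with changes of at least 2-fold and libraries drawn independently. That check does not cover smaller changes, such as the genotype values of the members, or libraries that deviate together.

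Within each tissue, same-numbered hu/hu and wt/wt libraries deviated together, with correlations of 0.256 to 0.499 (E18.5 midbrain), 0.266 to 0.300 (P21 midbrain) and 0.252 to 0.310 (P21 cortex), so the numbers pair them and a replicate block was an alternative. The other alternatives were RLE factors, DESeq2 1.42.0, other count filters, a stricter threshold, a joint fit of 28 libraries, wt/wt only, each library left out, and other level scalings. All members and Nova1 are named, with the 3 genes most like each member and, per list, up to 3 called genes per direction; a gene that this rule names is not reported here. The members and lists were chosen with earlier results of these data known. Sequences came from RefSeq GRCm38.p6, matching 9 of 10 promoters, and GENCODE vM21. Protein sequences were not used here.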

Additional observations from a re-analysis of the deposited data

Results flagged for a closer look

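Of 72 sets of libraries (each member and each family sum, by tissue and genotype) examined for a library far from the rest, 3 held one, and chance alone marks about 1 in 20. Elavl1 was at 47.9 TPM in replicate 3 of E18.5 midbrain wt/wt, below the next lowest library at 55.1 and a mean of 56.4 over the others. The summed Elavl level was 476 TPM in replicate 3 of E18.5 midbrain hu/hu, below the next lowest at 507 and a mean of 513 over the others. The summed Celf level was 385 TPM in replicate 1 of P21 midbrain wt/wt, above the other 3 libraries, which all lay near 383, so the distance is small in absolute terms.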

How the results depend on the processing

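All 10 members stayed called lower at P21 and kept their sign in all 280 member values under the alternatives. In the region comparison the same 9 members stayed called with their sign, in 216 of 240 values, and Elavl4 in none. Its ratio of mean TPM, an alternative chosen after seeing the data, was -0.04 on the log2 scale. No member was called for genotype or interaction. Their values changed sign in 26 of 190 (E18.5 midbrain), 8 of 150 (P21 midbrain) and 12 of 150 (P21 cortex) cases. The genotype value of Elavl1 in E18.5 midbrain ran from -0.02 (without wt/wt replicate 3) to 0.05 with 1 library left out, and the genotype by age value of Elavl2 from -0.02 to 0.12, at or below 0 (-0.00, -0.00, -0.02 and -0.01) without E18.5 hu/hu replicate 3, E18.5 wt/wt replicates 1 and 4 and P21 wt/wt replicate 3. For genotype in P21 midbrain, the replicate block called 4 genes and DESeq2 called 1, none a member. The block gave 13939 called genes for age against 13947 and 12403 for region against 12337, where same-numbered libraries did not deviate together. It changed no member's call. Unadjusted p fell under 0.05 for Celf5 in P21 midbrain without hu/hu replicate 2 (0.016) or 3 (0.048), and for Celf2 in P21 cortex without hu/hu replicate 3 (0.013). Leaving out 1 library gave 13829 to 13956 called genes for age, 12176 to 12296 for region and 0 to 0 for genotype and interactions. TMM-rescaled TPM was 0.90 (E18.5 midbrain), 1.05 (P21 midbrain) and 1.1 (cortex) times the TPM, and TPM without the 10 top genes 1.09, 1.07 and 1.05 times, with the same order of members in each tissue. Members had at least 584 counts in every library.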
